A study of Mus musculus with 35 samples.

Results

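The glutathione transferase genes examined here are Gsta3 and Gsta4 of the alpha class, Gstm1 to Gstm5 of the mu class, Gstp1 of the pi class, and Gstt1 and Gstt2 of the theta class. These 10 genes were chosen by name, with earlier results of these data known. A gene was read through probe sets whose annotation names it alone. The array measured 9 of the 10, out of 17097 genes with a probe set of their own. Gsta3 had no such probe set and was not analysed here. The 9 genes had 13 probe sets in all. The probe set with the highest mean over the 35 arrays, called the main one, stands for its gene below, and the other 4, of which 3 read Gstm1 and 1 reads Gstm3, are given beside it.

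Glutathione transferases join the tripeptide glutathione to reactive compounds, which makes them more soluble and ready for export from the cell. Styrene, the monomer of polystyrene, is oxidised by cytochrome P450 enzymes to styrene oxide, and this epoxide is cleared by hydrolysis or by conjugation with glutathione. In mouse liver the alpha, mu and pi classes make up most of the soluble transferase protein. The theta class differs from them in the residue that activates glutathione, and it prefers small reactive substrates.

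Liver RNA came from 35 adult male wild-type C57Bl/6 mice, each caged alone during a single inhalation of 6 hours and killed the morning after. The 7 groups of 5 mice breathed air without styrene, or styrene vapour at 1, 5, 10, 20, 40 or 120 ppm. The labels give the mice of a group as biological replicates, each with 1 array, so p-values measure the spread between mice. Values are log2 signals of Affymetrix 3' arrays, which read a transcript near its 3' end, and a difference of 1 is a doubling. The 6 comparisons with air share the same 5 air mice, so their results are not independent of each other. The mouse numbers in the sample titles rise with concentration, from 1 to 8 in air up to 49 to 56 at 120 ppm. Anything that followed this numbering cannot be told apart from concentration. In whole liver, fewer cells of a type and less RNA per cell cannot be told apart.

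Whole-array measures and cell markers were checked first, and some moved with concentration. The array median averaged 3.598 at 120 ppm and 3.503 in air. The actin 3' minus 5' difference, a reading of RNA integrity and labelling, lay between 0.61 and 0.85 at 20 ppm, between 0.60 and 0.79 at 40 ppm and between 0.65 and 0.79 at 120 ppm, against 0.44 to 0.55 in air. None of 6 hepatocyte markers changed, and their summed signal was 71422 to 72367 at 120 ppm and 70892 to 73633 in air. Of 9 Kupffer cell markers (resident macrophages), 4 fell at 120 ppm, and the summed signal was 1433 to 2201 against 2046 to 3755 in air. Of 4 lung markers 3 were measured and 2 fell, with sums of 50 to 67 at 120 ppm and 47 to 920 in air. Of 4 measured markers of exocrine pancreas 1 fell, Cela1 (-1.10). The sums of 163 to 197 at 120 ppm did not overlap the 272 to 428 in air, but they are mostly the signal of Cela1. Cel, Prss1 and Cpa1 were dim and did not pass, with changes of 0.22, -0.24 and -0.07. Of 5 measured neutrophil markers only Prtn3 (1.43) passed the threshold given below. Among 7 markers of stellate cells and fibroblasts only Col3a1 (-1.41) passed, and among 3 red cell markers only Alas2 (-0.62). The median changes of these 3 lists at 120 ppm were 0.08, -0.04 and -0.18. The part of these measures in the results below was not tested.

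At 120 ppm 6 of the 9 measured transferases passed the threshold, an adjusted p under 0.05 in limma. Gsta4, Gstm3, Gstm4, Gstm5 and Gstp1 were lower than in air and Gstt2 was higher. Over all 45037 probe sets 19.4% were called in this comparison, 6.40% as lower. That background holds many dim probe sets, while the members' main probe sets all lie at percentile 87 of signal or above. With only probe sets brighter than the median fitted, 5767 were called, among them the same 6 members. That fit held fewer probe sets, and a larger share of them was called than the 19.4% over all. At 40 ppm 5 members were called, the same without Gstp1, against 14.6% of probe sets, 4.89% as lower. At 20 ppm 4 were called, all lower (Gsta4, Gstm3, Gstm4 and Gstm5), against 1.03% of probe sets, 0.619% as lower. All 4 calls at 20 ppm were lost when only the 20 ppm and air arrays were fitted, and without 20 ppm replicate 2 only Gsta4 was called. No member was called at 1, 5 or 10 ppm, where 0.00444%, 0.153% and 0% of probe sets were. At an unadjusted p under 0.05 there were 3, 2 and 2 members in those groups, beside 5.63%, 7.08% and 6.37% of probe sets. At 20, 40 and 120 ppm the median change over the 9 members was -0.46, -0.34 and -0.27, and over all 17097 genes it was 0.002, 0.022 and 0.035.

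**Figure D1:**
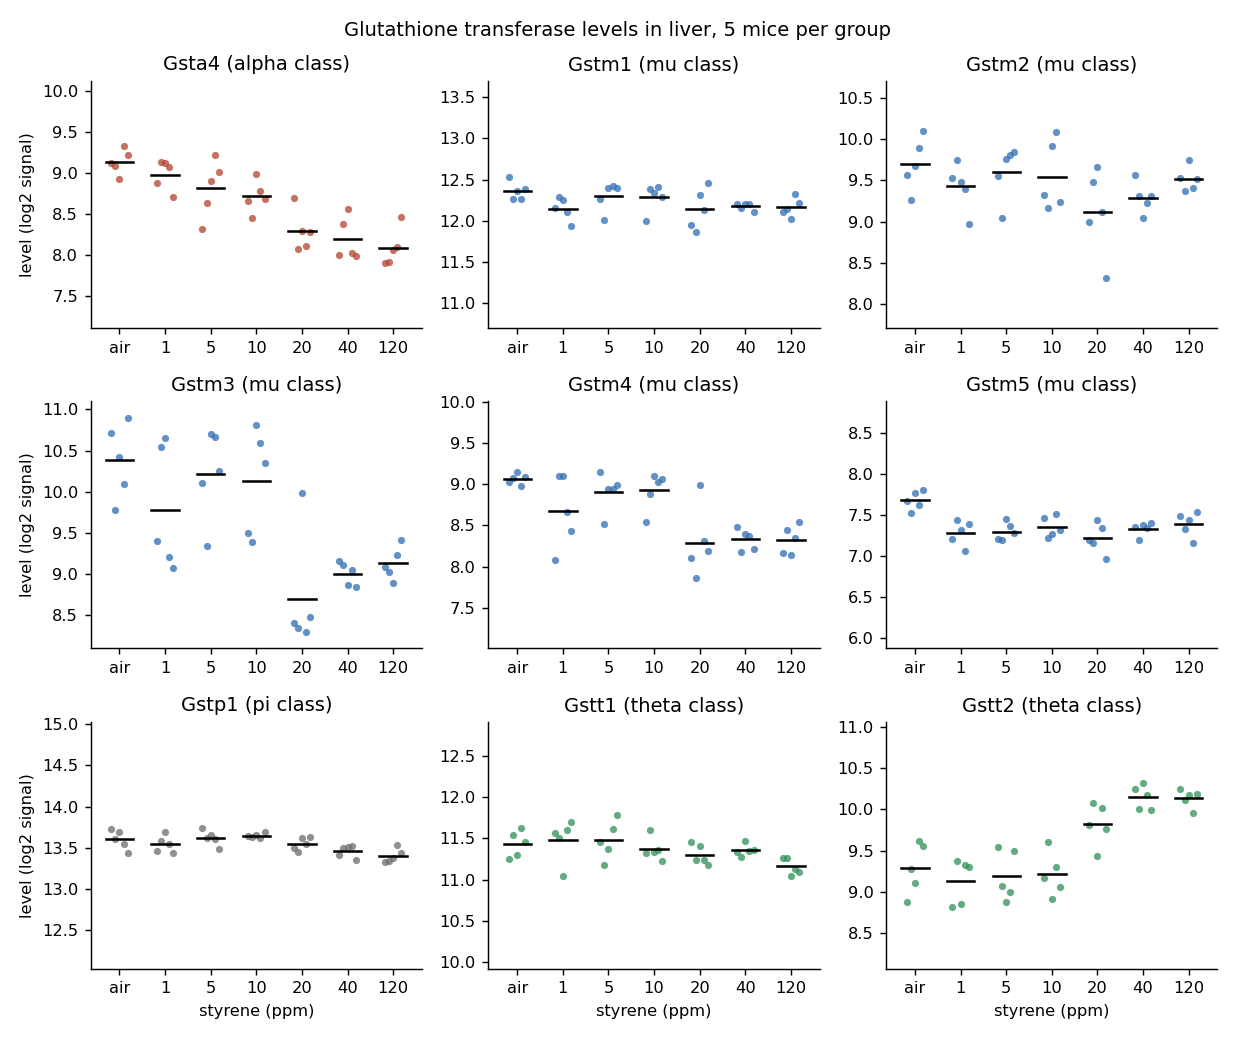
Level of each of the 9 measured transferases (log2 signal, each gene on an axis of its own spanning the same range) in every mouse, by styrene concentration in ppm with air at the left, 5 mice per group. Points are mice and horizontal lines are group means. Gsta4 steps down over the concentrations, Gstm3 and Gstm4 sit low at 20, 40 and 120 ppm with 1 mouse of 20 ppm apart, and Gstt2 sits high at 40 and 120 ppm.

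Of the alpha class, only Gsta4 could be read. Its product conjugates 4-hydroxynonenal, a toxic aldehyde from oxidised lipids. The level was 7.91, 7.92, 8.06, 8.09 and 8.46 at 120 ppm, and 9.11, 9.09, 8.92, 9.32 and 9.21 in air. All 5 exposed mice were below all 5 air mice. The fall at 120 ppm was -1.04 ± 0.14 (SE, adjusted p = 1.73e-05), a level 2.06-fold lower. Gsta4 fell at each of the 3 upper concentrations, and the groups did not overlap with air in any of them. Groups entirely below air were found for 0.946%, 4.22% and 4.73% of probe sets at 20, 40 and 120 ppm. At 40 ppm the values were 8.0, 8.37, 8.56, 8.03 and 7.99, a change of -0.94 (adjusted p = 8.2e-05). At 20 ppm they were 8.69, 8.07, 8.29, 8.11 and 8.28, a change of -0.84 (adjusted p = 0.00613, and 0.0679 with only these 2 groups fitted).

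The group means of Gsta4 stood in the order of dose, with 9.13 ± 0.15 in air, 8.98 ± 0.19 at 1 ppm, 8.81 ± 0.35 at 5 ppm, 8.71 ± 0.19 at 10 ppm, 8.29 ± 0.25 at 20 ppm, 8.19 ± 0.26 at 40 ppm and 8.09 ± 0.22 at 120 ppm (SD, n = 5 each). Each group overlapped its neighbours in that order, which is also the order of the mouse numbers. The slope was -0.16 per unit of log2(ppm + 1), with an adjusted p of 6.72e-08, and 10.8% of all probe sets had a slope called below 0. At 1, 5 and 10 ppm the changes were -0.15, -0.32 and -0.42, and none passed (adjusted p = 0.975, 0.643 and 0.573). Leaving out any 1 mouse of the 120 ppm or air groups kept the change at 120 ppm between -1.13 and -0.99.

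The mu class genes lie side by side. In the gene table of the GRCm38.p6 assembly the coding genes run along chromosome 3 as Gstm5, Gstm7, Gstm6, Gstm3, Gstm2, Gstm1 and Gstm4, with no other coding gene between them. Their sequences are much alike, and the main probe sets of Gstm1 and Gstm3 are of kinds that can also read similar transcripts, so these 2 readings may hold signal of their neighbours. The RefSeq promoter table held 8 of the 10 members. The 250 bases before the start are shown for the 3 mu genes that were called, so that genes of a cluster that moved by unequal amounts can be set beside each other. The windows are Gstm5 at chr3:107895604-107895853 on the plus strand, Gstm3 at chr3:107969175-107969424 and Gstm4 at chr3:108044860-108045109 on the minus strand, the last for the first of 2 listed starts. Each is written 5′ to 3′, and capitals mark a match to TGACNNNGC, the core of the antioxidant response element, which NRF2 binds.
Gstm5: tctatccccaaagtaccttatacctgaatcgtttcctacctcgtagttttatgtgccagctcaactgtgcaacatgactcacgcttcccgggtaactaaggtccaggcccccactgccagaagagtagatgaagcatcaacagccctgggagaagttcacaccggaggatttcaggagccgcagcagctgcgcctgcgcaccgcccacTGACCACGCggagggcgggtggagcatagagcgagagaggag
Gstm3: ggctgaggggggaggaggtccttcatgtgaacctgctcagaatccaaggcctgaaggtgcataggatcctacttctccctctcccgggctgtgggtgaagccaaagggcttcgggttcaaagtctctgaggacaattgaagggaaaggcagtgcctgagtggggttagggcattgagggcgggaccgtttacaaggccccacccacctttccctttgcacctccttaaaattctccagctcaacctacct
Gstm4: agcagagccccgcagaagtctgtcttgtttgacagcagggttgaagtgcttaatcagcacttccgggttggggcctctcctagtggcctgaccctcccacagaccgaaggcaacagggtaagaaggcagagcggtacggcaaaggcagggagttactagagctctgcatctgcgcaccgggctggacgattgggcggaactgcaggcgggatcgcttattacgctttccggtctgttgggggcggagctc
Gstm5 held the only match of the 3, from 42 to 34 bases before its start.

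A set of 5 motifs was searched on both strands in the promoter windows of the 8 members, and each is found in many promoters. TGACNNNGC was in 10.2% of the 32851 windows of the table, the nuclear receptor half-site AGGTCA in 14.0%, the E-box CACGTG in 6.02%, the D-box TTATGNAA in 3.07% and the TATA box TATAAA in 12.4%. Among the members, TGACNNNGC was also in the Gsta3 window, 121 to 113 bases before the start. TATAAA was in that of the second Gstm1 start, 30 to 25 bases before it. TTATGNAA was in that of Gstt1, 39 to 32 bases before the start. None of the 5 was in the windows of Gstm2, Gstm3, Gstm4 or Gstp1. A match describes letters and does not show a bound site.

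Gstm3 fell furthest of the 9 members at 20, 40 and 120 ppm by its fitted change. It had 9.08, 9.03, 8.89, 9.23 and 9.41 at 120 ppm, and 10.71, 9.78, 10.42, 10.10 and 10.90 in air. The groups did not overlap. The change was -1.25 ± 0.32 (SE, adjusted p = 0.00649), a level 2.38-fold lower. At 40 ppm the mice had 9.16, 9.11, 8.86, 9.05 and 8.84, also all below air, with a change of -1.38 (adjusted p = 0.00394). At 20 ppm they had 8.40, 8.34, 9.99, 8.29 and 8.48, and replicate 3 stood inside the range of air while the other 4 were below it. The change at 20 ppm was -1.68 (adjusted p = 0.00872), with a range of -2.00 to -1.55 when 1 mouse was left out in turn. It did not pass without 20 ppm replicate 2 (-1.59, adjusted p = 0.0543).

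Below 20 ppm the Gstm3 level differed widely between mice of 1 group. At 1 ppm 2 mice had 10.55 and 10.65, and the other 3 had 9.40, 9.21 and 9.07. The SD was 0.76 at 1 ppm, 0.55 at 5 ppm, 0.65 at 10 ppm and 0.72 at 20 ppm, against 0.46 in air, and only 0.14 at 40 ppm and 0.20 at 120 ppm. The mean was 9.77 at 1 ppm, 10.21 at 5 ppm, 10.13 at 10 ppm and 10.38 in air, and these 3 groups overlapped air. Its other probe set followed the main one over the 35 arrays (r = 0.98). It gave changes of -1.49 at 20 ppm, -1.53 at 40 ppm and -1.34 at 120 ppm, all of which passed (adjusted p = 0.0193, 0.00206 and 0.00464).

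Gstm4, at the far end of the cluster, had 8.17, 8.44, 8.14, 8.35 and 8.54 at 120 ppm, against 9.03, 9.07, 9.15, 8.97 and 9.08 in air. The groups did not overlap, and the air mice differed little among themselves (SD 0.065). The level was 1.66-fold lower, a change of -0.73 ± 0.17 (SE, adjusted p = 0.00249). The change was -0.73 at 40 ppm too (adjusted p = 0.00323), where all 5 mice were again below air. At 20 ppm the mice had 8.10, 7.86, 8.99, 8.32 and 8.19, and replicate 3 reached the range of air, as it did for Gstm3. The change there was -0.77 (adjusted p = 0.0171). It did not pass without air replicate 3 (adjusted p = 0.0511) or without 20 ppm replicate 2, 4 or 5 (adjusted p = 0.0969, 0.055 and 0.0514).

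Gstm5 had another pattern over the concentrations. Its mean was 7.28 at 1 ppm already, and lay between 7.22 and 7.39 at every higher concentration. In air the mice had 7.67, 7.53, 7.76, 7.62 and 7.80. At 1 ppm they had 7.20, 7.43, 7.32, 7.06 and 7.39, at 5 ppm 7.20, 7.19, 7.45, 7.36 and 7.28, and at 10 ppm 7.46, 7.22, 7.27, 7.52 and 7.32. No mouse of these 3 groups reached the lowest air mouse. The changes were -0.39, -0.38 and -0.32, with unadjusted p of 0.000103, 0.000165 and 0.0011 in limma, and none passed the adjustment over all probe sets (adjusted p = 0.231, 0.0782 and 0.39). Groups entirely below air were found for 0.451%, 0.431% and 0.382% of probe sets at those concentrations. All 3 comparisons rest on the same 5 air mice.

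At the upper concentrations Gstm5 passed. It averaged 7.22 ± 0.18 at 20 ppm, 7.33 ± 0.079 at 40 ppm and 7.39 ± 0.15 at 120 ppm, against 7.67 ± 0.11 in air (SD, n = 5 each). The changes were -0.46 (adjusted p = 0.00963), -0.34 (adjusted p = 0.00956) and -0.29 (adjusted p = 0.0226). At 20 and 40 ppm no mouse overlapped air, and at 120 ppm replicate 5, at 7.54, lay just above the lowest air mouse. Without 20 ppm replicate 2 the call at 20 ppm was lost (adjusted p = 0.0543). The call at 120 ppm was lost without air replicate 3 (adjusted p = 0.06), air replicate 5 (adjusted p = 0.0566) or 120 ppm replicate 4 (adjusted p = 0.081). The mice of 40 and 120 ppm together, set against those of 1, 5 and 10 ppm, differed by 0.05 (95% interval -0.07 to 0.17, adjusted p = 0.527).

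Gstm1 and Gstm2, which lie between Gstm3 and Gstm4, were not called in any comparison through their main probe sets. Gstm1 had 12.10, 12.14, 12.03, 12.33 and 12.21 at 120 ppm, and 12.54, 12.26, 12.36, 12.27 and 12.39 in air. The ranges overlapped, and the change was -0.20 with a 95% interval of -0.40 to 0 (adjusted p = 0.155). At 40 ppm all 5 mice, from 12.11 to 12.21, were below the lowest air mouse, with a change of -0.19 (adjusted p = 0.211). The other Gstm1 probe sets did not all give the same call. One of them passed at 40 ppm (-0.34, adjusted p = 0.025) and at 120 ppm (-0.34, adjusted p = 0.0195), and it followed the main one with r = 0.86. It too is of a kind that can read similar transcripts. The other 2, with r = 0.98 and 0.66, did not pass. Their changes at 120 ppm were -0.24 and -0.26 (adjusted p = 0.105 and 0.213 in limma). The readings of Gstm1 thus share a direction at 120 ppm and disagree on the call.

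Gstm2 had 9.53, 9.38, 9.75, 9.41 and 9.51 at 120 ppm, and 9.57, 9.27, 9.67, 9.90 and 10.10 in air. All 5 exposed mice lay inside the range of air, and the change was -0.19 (95% interval -0.60 to 0.22, adjusted p = 0.543). Its lowest mean was 9.11 ± 0.52 at 20 ppm, where 1 mouse was at 8.31, and the change of -0.59 did not pass (adjusted p = 0.169). The interval at 120 ppm reaches past the fall fitted for Gstm5.

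**Figure D2:**
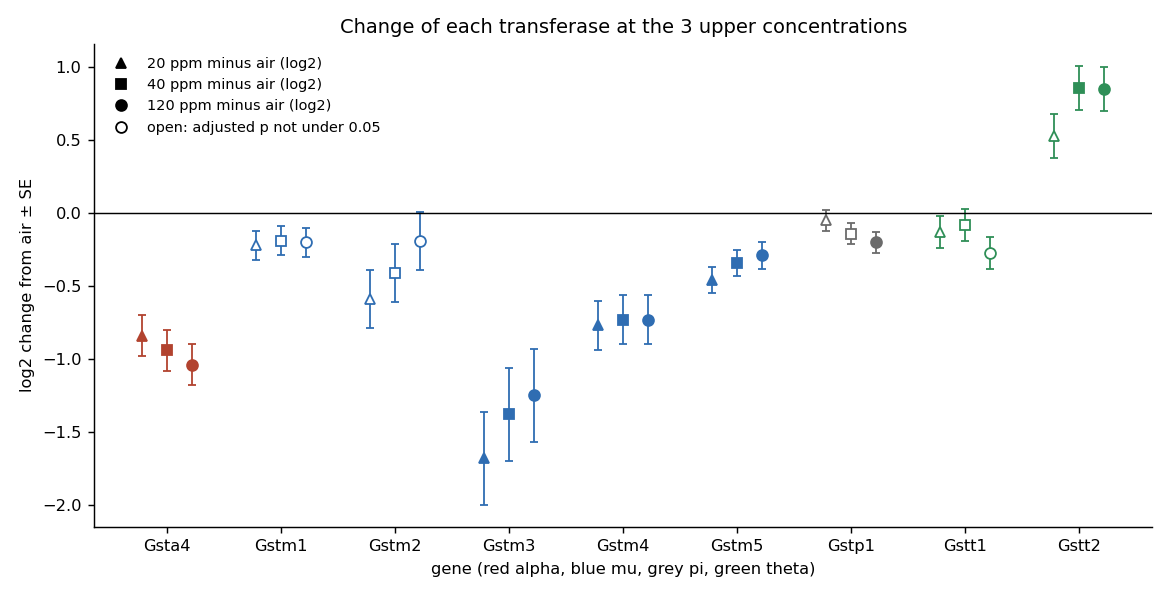
Change of each member from air on the log2 scale at 20, 40 and 120 ppm, with bars of 1 SE from limma, grouped by class (red alpha, blue mu, grey pi, green theta). Gsta4, Gstm3 and Gstm4 lie below 0 at all 3 concentrations, Gstt2 lies above 0, and Gstm1, Gstp1 and Gstt1 stay within 0.3 of it.

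Members of a class were compared with each other through the difference of their levels within each array, at 120 ppm against air. Of 11 such pairs, 10 in the mu class and 1 in the theta class, 7 differed in their change after adjustment over the pairs (two-sided exact permutation test, smallest p possible 0.00794). Gstm3 fell by more than Gstm1, Gstm2 and Gstm5, with differences of 1.05, 1.07 and 0.97 in size (adjusted p = 0.0146 each). Gstm4 fell by more than Gstm1 by 0.53 and more than Gstm5 by 0.45 (adjusted p = 0.0146 each, exact permutation test). Gstm4 against Gstm2 differed by 0.55 and passed narrowly (adjusted p = 0.0499), and it was lost in 8 of the 10 runs that left out 1 mouse. Those runs were without air replicate 1, 2 or 3 or without any 1 of the 120 ppm mice. Gstm3 and Gstm4 differed by 0.52 without passing (adjusted p = 0.0546), and passed without air replicate 2. The changes of Gstm1 and Gstm2 differed by 0.01, with an adjusted p of 0.929. Those of Gstm5 against Gstm1 and Gstm2 differed by 0.09 and 0.10 (adjusted p = 0.62 and 0.534, exact permutation test). The mu class main probe sets differ in brightness, from a mean of 7.36 for Gstm5 to 12.22 for Gstm1. Very bright probe sets can understate change, and the part of this in the differences was not tested.

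Along the chromosome the size of the change was not steady. The neighbours Gstm7 and Gstm6, mu class genes between Gstm5 and Gstm3, also fell. Gstm7 had 8.34 at 120 ppm and 8.88 in air, a change of -0.54 (adjusted p = 0.00448), and Gstm6 had 8.60 and 9.35, a change of -0.75 (adjusted p = 0.000317). At 20 ppm they had changed by -0.59 and -0.60 (adjusted p = 0.02 and 0.0211). In chromosome order the changes at 120 ppm were -0.29 for Gstm5, -0.54 for Gstm7, -0.75 for Gstm6, -1.25 for Gstm3, -0.19 for Gstm2, -0.20 for Gstm1 and -0.73 for Gstm4. The 2 genes that did not pass thus stood between 2 that did.

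**Figure D3:**
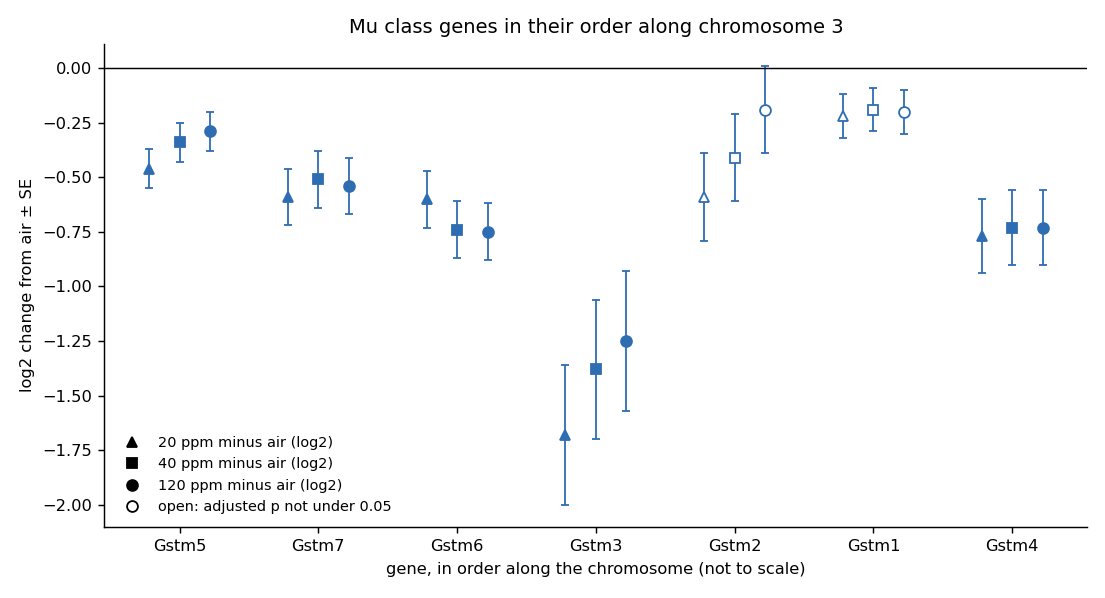
Change from air on the log2 scale (± 1 SE, limma) of the 7 mu class genes in their order along chromosome 3 at 20, 40 and 120 ppm, with distances not to scale. At 120 ppm the change deepens to -1.25 for Gstm3 in the middle, is -0.19 and -0.20 for Gstm2 and Gstm1, and is -0.73 for Gstm4. At 20 ppm Gstm2 is at -0.59, level with Gstm7 and Gstm6.

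Some pairs of mu genes varied together from mouse to mouse and others did not. Over the 35 arrays Gstm3 and Gstm4 had r = 0.90, and r = 0.76 over the deviations from the group means, which leave the concentration out. The deviations gave 0.64 for Gstm2 with Gstm3 and 0.62 for Gstm1 with Gstm3, but 0.34 for Gstm2 with Gstm4, 0.14 for Gstm1 with Gstm2 and -0.02 for Gstm1 with Gstm5. Gsta4, on chromosome 9, had r = 0.72 with Gstm3 over the arrays and 0.40 over the deviations. These arrays share the RNA preparation, the array's own level and the means of 7 groups, and the mu probe sets may share signal, so the values are descriptions.

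Gstp1, the pi class enzyme, is expressed more strongly in male than in female mouse liver, and its sequence is nearly the same as that of Gstp2, from which this probe set may not separate it. It had 13.32, 13.34, 13.38, 13.54 and 13.43 at 120 ppm, and 13.73, 13.61, 13.70, 13.54 and 13.44 in air. The ranges overlapped, with 1 exposed mouse inside that of air and 4 below it. The change of -0.20 ± 0.07 (SE) passed (adjusted p = 0.0333). Dropping a single mouse numbered 1, 2 or 3 from either group ended the call, and the adjusted p then reached 0.0929 at most. The mice of 40 and 120 ppm, set against those of 1, 5 and 10 ppm, differed by -0.17 ± 0.04 (SE, adjusted p = 0.00224), in a comparison that holds no air mouse. The signal of Gstp1 is among the highest on the array, where changes can be understated.

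The theta class members differed in direction. Gstt1, which conjugates small halogenated compounds and epoxides, had 11.27, 11.26, 11.04, 11.13 and 11.09 at 120 ppm, and 11.25, 11.54, 11.30, 11.63 and 11.46 in air. The exposed mice were low, with 2 of the 5 inside the range of air. The change was -0.27 with a 95% interval of -0.49 to -0.06 and did not pass (adjusted p = 0.0634). With each array centred on its median it passed (-0.37, adjusted p = 0.0168). Against 40 ppm the 120 ppm mice were all lower, by 0.20, which did not pass either (adjusted p = 0.923), and 0.615% of probe sets were lower without overlap there.

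Gstt2 was the 1 member that rose. Its enzyme acts on sulfate esters and small reactive substrates. It had 10.25, 10.11, 10.18, 9.95 and 10.19 at 120 ppm, and 8.88, 9.27, 9.11, 9.62 and 9.55 in air. Every exposed mouse was above every air mouse. The rise was 0.85 ± 0.15 (SE, adjusted p = 0.000281), a level 1.80-fold higher. At 40 ppm the values were 10.24, 10.01, 10.32, 10.17 and 9.99, again all above air, and the change was 0.86 (adjusted p = 0.000307). Groups entirely above air were found for 8.64% of probe sets at 40 ppm and 8.90% at 120 ppm. Leaving out any 1 mouse of the 120 ppm or air groups kept the change at 120 ppm between 0.75 and 0.93.

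The step in Gstt2 lay between 10 and 40 ppm. Its mean was 9.29 ± 0.31 in air, 9.13 ± 0.28 at 1 ppm, 9.20 ± 0.30 at 5 ppm, 9.21 ± 0.27 at 10 ppm, 9.82 ± 0.25 at 20 ppm, 10.15 ± 0.14 at 40 ppm and 10.13 ± 0.11 at 120 ppm (SD, n = 5 each). The groups up to 10 ppm overlapped one another, and so did 40 and 120 ppm, which differed by -0.01 (95% interval -0.32 to 0.29). At 20 ppm the mice had 9.81, 10.07, 9.43, 10.02 and 9.76, and replicate 3 lay inside the range of air. The change of 0.53 at 20 ppm did not pass (adjusted p = 0.0761), and it did without that mouse (0.63, adjusted p = 0.0196). Replicate 3 of 20 ppm was thus nearer to air than its group for Gstt2, Gstm3 and Gstm4 alike, as seen after the fact. For Gsta4 the same mouse had 8.29, at its group mean of 8.29 and below every air mouse. The mice of 40 and 120 ppm averaged 10.14 against 9.18 in those of 1, 5 and 10 ppm, and no mouse of the one set reached the other (adjusted p = 1.07e-08). Such a rise without overlap was found for 1.07% of probe sets.

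Within each array, Gstt1 stood above Gstt2 by 1.02 ± 0.14 at 120 ppm and by 2.15 ± 0.19 in air (SD, n = 5 each). As levels of different probe sets these gaps have no meaning of their own. Their change of -1.12 is the difference between the changes read for the 2 genes (two-sided exact permutation p = 0.00794, adjusted p = 0.0146). Gstt1 and Gstt2 both lie on chromosome 10. Their deviations from the group means had r = 0.48, although their changes at 120 ppm had opposite signs.

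Gstt2 had the smallest p of the 9 members in the F test over the 7 groups (adjusted p = 9.95e-07), and the genes most like it were therefore sought by Pearson r over the 35 arrays. The closest was Nr1i3, which encodes CAR, a nuclear receptor that induces drug metabolism genes (r = 0.927). Csrp3, a muscle LIM protein gene, followed with 0.907, Inca1 with 0.906, Serhl with 0.905 and Phka2, a phosphorylase kinase subunit, with 0.903. Nr1i3 averaged 10.10 ± 0.19 at 120 ppm and 8.62 ± 0.21 in air (SD, n = 5 each), a change of 1.47 (adjusted p = 1.14e-05). Its means were 8.59, 8.68 and 8.67 at 1, 5 and 10 ppm, then 9.73 at 20 ppm and 10.07 at 40 ppm. The mouse of 20 ppm with the lowest Gstt2 also had the lowest Nr1i3 of its group, 9.34. An r over all arrays largely restates the shared step between 10 and 40 ppm.

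Over the deviations from the group means the order changed. Nr1i3 had r = 0.658 there, and the highest were Decr2 (0.787), a peroxisomal reductase of fatty acid oxidation, Serhl and Sdhb (0.744 each), Mgmt (0.733), a DNA repair gene, and Chkb (0.708), a choline kinase gene. Sdhb, a subunit of succinate dehydrogenase, did not pass at 120 ppm (0.01, adjusted p = 0.932). Serhl was the only gene among the 5 highest by both measures.

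**Figure D4:**
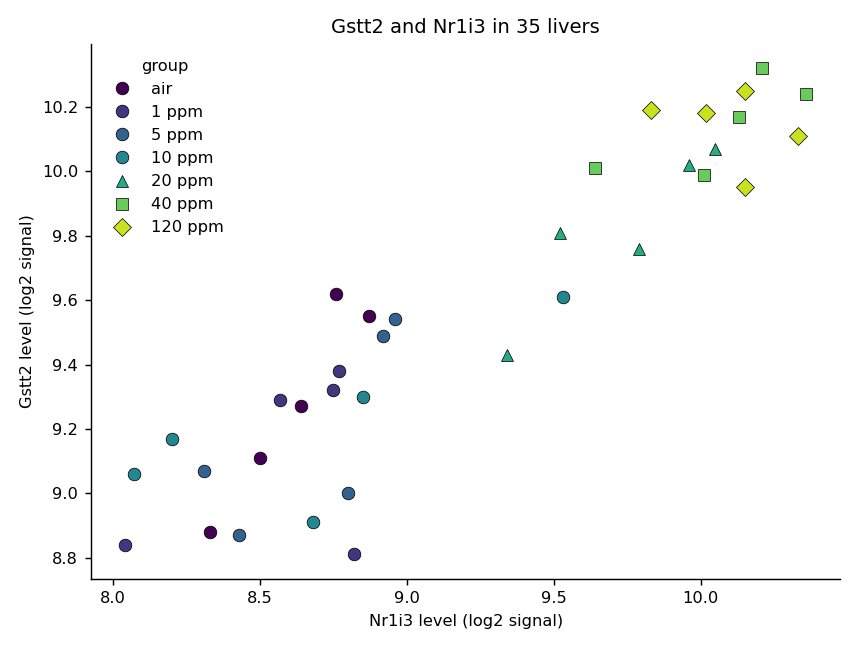
Level of Gstt2 (vertical) against Nr1i3 (horizontal), both log2 signal, in each of the 35 livers, coloured by group. The mice of 40 and 120 ppm lie at upper right with Gstt2 from 9.95 to 10.32, those of 20 ppm reach from 9.43 to 10.07, and the others lie at lower left, apart from a 10 ppm mouse with Nr1i3 at 9.53.

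Across the whole dose series the members fell into several patterns. In the F test 6 of 9 differed among the groups (Gstt2, Gsta4, Gstm3, Gstm4, Gstm5 and Gstp1), against 20.4% of probe sets. Gstp1 (adjusted p = 0.0437) was lost there in 23 of the 35 runs that left out 1 mouse. In the slope 6 of 9 passed, against 32.0% of probe sets: Gstt2 upward at 0.16 per unit of log2(ppm + 1), and Gsta4, Gstm3, Gstm4, Gstp1 and Gstt1 downward at -0.16, -0.21, -0.11, -0.03 and -0.04. Gstm5 was called in the F test and not in the slope (-0.03, adjusted p = 0.127), and Gstt1 in the slope (adjusted p = 0.0127) and not in the F test (adjusted p = 0.155). The same 6 members as in the slope passed between 40 and 120 ppm and the 3 lowest concentrations, where 35.9% of probe sets were called, 12.6% as lower. There Gsta4 differed by -0.69, Gstm3 by -0.97 and Gstm4 by -0.51 (adjusted p = 1.2e-06, 0.000483 and 0.000438). No member was called at 120 ppm against 40 ppm, where 0.0244% of probe sets were, and their changes lay between -0.20 and 0.22. At an unadjusted p under 0.05 the count was 0 as well.

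A wider set of listed genes went both ways at 120 ppm. The lists cover other transferases, glutathione synthesis and redox enzymes, export and mercapturate steps, styrene oxidation and hydrolysis, and regulators. Of 51 measured, 11 were higher and 8 lower, and the median change was 0.06. Of all probe sets 19.4% were called at this concentration, 6.40% as lower. Of 15 other transferases 10 were measured, and beside Gstm6 and Gstm7 1 changed, the microsomal Mgst2, at 3.42 against 3.15 in air (adjusted p = 0.0393), a dim probe set. The alpha class gene Gsta2 had 8.61 at 120 ppm and 9.02 in air and did not pass (adjusted p = 0.204). Gstk1 of mitochondria and Gsto1 of the omega class had changes of 0.06 and -0.07 (adjusted p = 0.649 and 0.673).

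Of 10 genes of glutathione synthesis, all measured, 2 fell and none rose at 120 ppm, a share near the 19.4% of all probe sets called. Gclc, the catalytic subunit of the rate-limiting ligase, averaged 10.18 at 120 ppm and 10.83 in air, a change of -0.65 (adjusted p = 0.00232), and its partner Gclm had a change of 0.01 (adjusted p = 0.959). Cbs, which starts the route from homocysteine to cysteine, averaged 10.26 at 120 ppm and 11 in air (-0.74, adjusted p = 0.000285). Of 7 redox enzymes measured, Gsr, which regenerates reduced glutathione, fell by 0.37 (adjusted p = 0.00201), while Glrx, glutaredoxin, rose by 0.55 (adjusted p = 0.0142) and Gpx3, the secreted peroxidase, by 0.43 (adjusted p = 0.0489).

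Genes of the steps after conjugation mostly rose where they changed. Of 11 measured genes for export and mercapturate formation 4 were higher and 1 lower at 120 ppm, with a median change of 0.26. Over all probe sets 19.4% were called there, 6.40% as lower. Abcc2, the pump that carries conjugates into bile, averaged 10.06 at 120 ppm and 9.58 in air (0.48, adjusted p = 0.00168). Abcc3 and Abcc4, pumps toward the blood, rose by 0.50 and 0.49 (adjusted p = 0.0445 and 0.0347), and the dipeptidase Dpep1 by 0.44 (adjusted p = 0.00148). The probe sets of Abcc4 and Dpep1 were dim, at 4 and 3.39 at 120 ppm against 3.52 and 2.94 in air. Cndp2, a peptidase for cysteinylglycine, fell by 0.43 (adjusted p = 0.00192). Of the 4 genes that form or hydrolyse styrene oxide, Ephx1, the microsomal epoxide hydrolase, fell by 0.52 (adjusted p = 0.00801) and the P450 Cyp2f2 by 0.29 (adjusted p = 0.00138). The P450 Cyp2e1 rose by 0.21 (adjusted p = 0.00628), and Ephx2 had a change of 0.09 (adjusted p = 0.418).

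Of 9 measured regulators 3 rose and none fell at 120 ppm, where 19.4% of all probe sets were called. They were Nr1i3, Mafg, a small partner of NRF2 (0.51, adjusted p = 0.00583), and Nr1i2, the nuclear receptor PXR (0.50, adjusted p = 0.0209). Nfe2l2, which encodes NRF2 itself, had a change of 0.06 (adjusted p = 0.744), and Ahr one of 0.46 (adjusted p = 0.0792). At 20 ppm 1 of the 51 listed genes was higher and 4 lower, where 1.03% of all probe sets were called. At 40 ppm 12 were higher and 6 lower, where 14.6% were called.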

How the data were processed

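The values deposited by the authors are log2 signals, with 1 per probe set and array. RMA and Partek appear in the submitters' processing notes, and their versions and roles are not given in the sources used here. No source used here states the log base. Base 2 was assumed because values ran from 1.74 to 14.23, and each fold rests on that reading. Nothing was renormalized.

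Of 45141 probe sets 104 controls were left out, and 45037 were tested. A platform annotation gave 28898 of them 1 gene symbol, 551 several and 15588 none. Looked up by gene identifier in a gene table of GRCm38.p6, 28689 matched and 0 differed in symbol. The same gene table gave the order of genes. Promoters are those of RefSeq for the same assembly, which held 8 of the 10 members.

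A mean per group was fitted to all 35 arrays with limma 3.58.1 in R 4.3.3 (28 residual and 5.41 prior degrees of freedom). Further fits were a moderated F test and a slope on log2(ppm + 1). Benjamini-Hochberg adjustment ran over the 45037 probe sets of each comparison, and adjusted p-values under 0.05 were calls. Pairs of members were compared by an exact permutation test over the 252 divisions of 10 arrays. Of 12 planned pairs, the alpha pair had no value because Gsta3 was not measured. SE is that of the fit, and SD is over the 5 mice of a group. On simulated data for 120 ppm against air with 45037 probe sets, limma recovered 51 of 100 changes of 0.5 on the log2 scale. It recovered 97 of 100 changes of 1, with 8 false calls. No other probe set was changed there, and the noise was drawn independently for each probe set. In the real comparison 8727 were called, so these rates need not hold for it. Tables were read with version 1.17.8 of the data.table package, and sequences and figures were made with Python 3.11.15 and matplotlib 3.10.9.

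The members, gene lists and tests were chosen with earlier results of these data known. Named genes were all members, their neighbours in the mu cluster, up to 4 passing genes a direction of each pathway list at 120 ppm, the whole list on styrene oxidation and hydrolysis, and the 5 genes most like the member with the smallest F test p by each of 2 measures. Genes named as not passing (Gsta2, Gstk1, Gsto1, Gclm, Nfe2l2 and Ahr) were added after their values were seen. The labels number the mice of each group as biological replicates 1 to 5. Same-numbered mice did not deviate together: of 105 pairs 31 had a correlation over 0.1, with a median of 0.0268, so the numbers were used as a block only in an alternative. The number of arrays limits the precision.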

Additional observations from a re-analysis of the deposited data

Results flagged for a closer look

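In each group of 5 mice the highest and lowest value of every probe set of a member was set against the others by Dixon's test. It picked 7 of 91 groups, and chance alone picks about 1 in 20.

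For Gstm3, 20 ppm replicate 3 stood high on both probe sets, at 9.99 on the main one with the next mouse at 8.48, and at 6.6 on the other with the next at 5.45. On the other Gstm3 probe set, 120 ppm replicate 5 was high at 6.0, with the next mouse at 5.65.

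For Gstm1, 10 ppm replicate 1 stood low on the main probe set, at 11.99 with the next mouse at 12.29, and on the probe set that follows it most closely, at 11.95 with the next at 12.26. Another Gstm1 probe set had 5 ppm replicate 2 low, at 9.34 with the next at 9.74. For Gstm5, 40 ppm replicate 2 was low at 7.20, with the next mouse at 7.34.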

How the results depend on the processing

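The counts of members called at 40 and 120 ppm, in the slope and between the upper and lower concentrations stayed within 1.5 times the reported ones under every alternative run, and no change of a member at 20, 40 or 120 ppm reversed direction. At 20 ppm the 4 calls became 0 when the 20 ppm and air arrays were fitted alone, a fit in which 0 probe sets in all passed and 6 members had an unadjusted p under 0.05 (limma). Gsta4 then had an adjusted p of 0.0679 and Gstm3 one of 0.0967. They became 1, Gsta4, without 20 ppm replicate 2. With array weights 1 member, Gstm5, was called at 5 ppm. Leaving out 1 mouse at a time gave 0 calls at 1, 5 and 10 ppm, 1 to 5 at 20 ppm, 5 at 40 ppm, 4 to 6 at 120 ppm, 5 to 7 in the F test, 6 in the slope, 5 to 6 between 40 and 120 ppm and the 3 lowest concentrations, 0 between 120 and 40 ppm, and 6 to 7 differing pairs, of which Gstm2 with Gstm4 was lost in 8 of 10 runs. With the replicate block 4, 5 and 6 members were called at 20, 40 and 120 ppm and 5 in the F test, where Gstp1 was lost, as it was after a second quantile normalization. Of 35 arrays 8 correlated best with arrays of their own number. Centring arrays on their median added Gstp1 at 40 ppm (-0.21, adjusted p = 0.0269), and Gstm1 (-0.29, adjusted p = 0.0297) and Gstt1 (-0.37, adjusted p = 0.0168) at 120 ppm. Gstt1 at 120 ppm also passed with an intensity-dependent prior (adjusted p = 0.0465), with array weights (adjusted p = 0.0361) and without air replicate 1 (adjusted p = 0.0424). Gstt2 at 20 ppm passed among the brighter probe sets (adjusted p = 0.0484) and with array weights (adjusted p = 0.0334). With only the 120 ppm and air arrays fitted, Gstp1 did not pass (adjusted p = 0.114). Over the members' changes at 20, 40 and 120 ppm, 231 kept their direction and side of the threshold under the other settings, 7 gained and 5 lost the call. Leaving out a mouse gave 253, 2 and 15. The causes were not tested. Probe sets of mu genes may read one another's transcripts, and dim probe sets can understate change.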
